A study of Mus musculus with 24 samples.

Results

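The genes described here encode the protein factors that start and extend translation in mouse liver, with the inhibitors, kinases and methyltransferases that act on them. They were chosen by platform gene symbol alone, as every probe set with a single symbol that begins with Eif1 to Eif6 or with Eef1 or Eef2, with 1 symbol left out by the rule. This gave 70 probe sets of 60 genes, out of 19935 genes tested. Of the 60, 48 were counted as factors, 3 as inhibitors of the cap-binding step, 4 as kinases and 5 as methyltransferases. The rule itself reads symbols and no measured value, though it was written with earlier results of these data known. All 60 were tested, since no filter on low values was applied.

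Liver RNA came from adult male C57BL/6 mice sampled at CT00, CT03, CT06, CT09, CT12, CT15, CT18 or CT21, with 3 arrays for each of these 8 times and 24 in all. All groups shared strain, sex and tissue, and the labels name no engineered allele and no agent. The mice had lived for 4 weeks in an alternation of light with dim red light, then stayed in dim red light throughout, and their livers were taken in the second cycle of this constant state. Each liver was extracted by itself and hybridized to its own Affymetrix Mouse Gene 1.0 ST array, which makes the arrays biological replicates. The labels mention 4 mice in one place and 3 replicates in another, and the series text counts fewer times than the sample labels, which were followed here. By the usual convention, a peak before CT12 is called here a day peak and a later one a night peak, the night being the active phase of mice. All times belonged to the same cycle, so recurrence of a wave was not observed.

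Translation begins when eIF2 brings the initiator tRNA to the small ribosomal subunit, with eIF1, eIF1A and the large scaffold eIF3 helping to select the start codon. The mRNA is delivered by the eIF4 factors: eIF4E holds the cap, eIF4G bridges to the ribosome, and the helicase eIF4A, helped by eIF4B and eIF4H, unwinds the leader. eIF5 and eIF5B complete the joining of the subunits, eIF2B recharges eIF2 with GTP, and eEF1 and eEF2 then drive each elongation step. Cells control this machine mainly by phosphorylation, through the eIF2 kinases and through the 4E-binding proteins that mTOR complex 1 releases from eIF4E. RNA levels, the only quantity measured here, do not report on phosphorylation.

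The values are logarithms, taken as log2, of each gene relative to its own median over the 24 arrays, so a value of 0 is the middle of that gene's arrays and no level of a gene is known. The array medians lay between -0.0185 and 0.0147. The 8 tested of 10 hepatocyte markers all fell in the upper of 2 brightness classes, against 3 of 42 markers of 10 other cell lists. Of these 42, 2 were called at 24 h, and the means of the lists over the times lay between -0.147 and 0.143; their part in the results was not tested. The farthest arrays from the mean of their own time were CT15 replicates 1 and 2, CT09 replicate 3 and CT18 replicate 3, at root mean square distances of 0.115 to 0.125 against a median of 0.0890 over arrays. Of the 60 genes, 27 were in the upper brightness class, which held 12.2% of all genes. Fewer cells of a type and less RNA per cell cannot be told apart in whole liver.

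Waves of 24 h were called in 9 of the 48 factors, 3 of them with a fitted day peak and 6 with a fitted night peak, and all were shallow. In this test a cosine and a sine were fitted by limma and called at a Benjamini-Hochberg adjusted p under 0.05, and 13.8% of all genes passed. Of these 9, 3 peaked in the day (Eif4b, Eif4a2 and Eif2a), where 8.02% of all genes had a called peak. The other 6 peaked in the night (Eif4e2, Eif2b1, Eif2b3, Eif4a1, Eif1ad and Eif5a), where 5.82% of all genes did. This split rests on the fitted peak. The highest group mean lay at CT12 or later in these 6 and at CT12 in Eif4b and Eif2a, but at CT06 in Eif4a2. Peak-to-trough folds of the 9 ran from 1.11 to 1.37, with a median amplitude of 0.131 (log2, mean level to crest) against 0.165 for all called genes. The median amplitude of all 48 factors was 0.0683 against 0.0456 over all genes. Within the upper brightness class the order was the other way, with 0.0612 for the 27 of the 60 genes there against 0.0819 for all genes. At an unadjusted p under 0.05, 14 of the 48 passed, where 23.8% of all genes did. Of the 27 genes in the upper brightness class 5 were called, against 34.0% of all genes in that class. The count of 9 fell to 5 without the 4 farthest arrays, to 4 without CT12 and to 5 without CT15. Night peaks were then 3 of 5, 2 of 4 and 2 of 5, and 2 of 5 with genes of the upper brightness class only, so that the night majority did not hold in the last 3 of these fits.

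**Figure D1:**
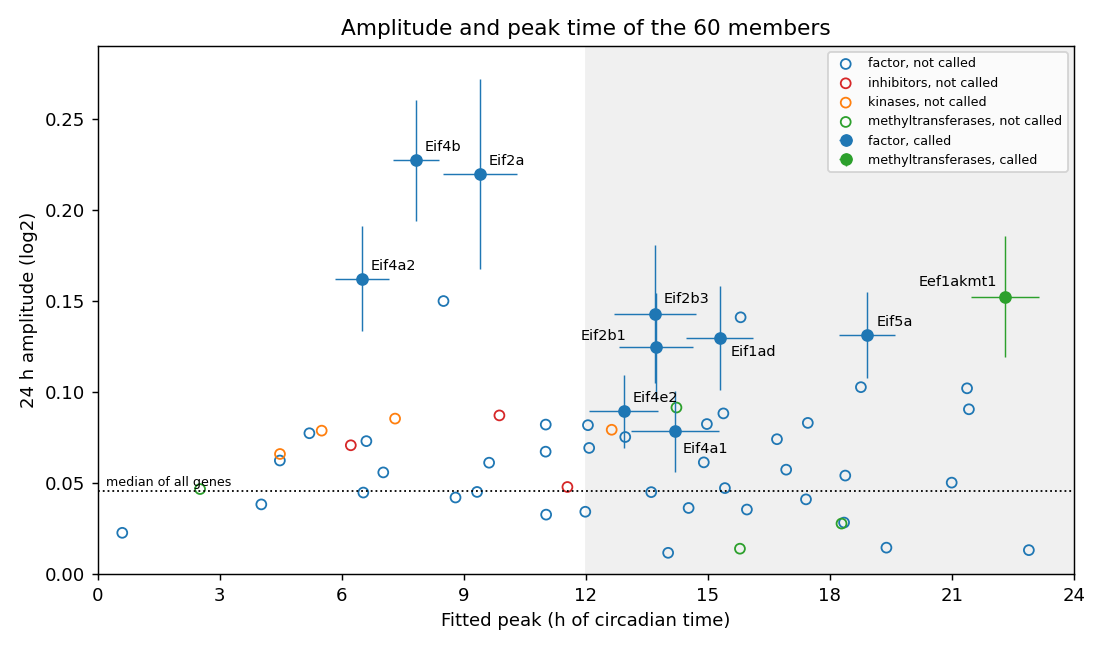
Amplitude of the fitted 24 h wave (log2, mean level to crest) of each of the 60 genes against its fitted peak time in hours of circadian time, with called genes filled, named and given SE bars, and shading from CT12. The called factors lie between 6.50 h and 18.9 h, and Eef1akmt1, a methyltransferase, lies apart from them at 22.3 h.

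A test of any difference among the 8 times, which needs no wave shape, called 8 factors, with 10.9% of all genes called. It shared 7 of them with the 24 h test and added Eif4a3. Eif4e2 and Eif2a passed only the 24 h test (adjusted p in limma's test of times 0.152 and 0.0825). A 12 h wave beside the 24 h wave was called in 0 factors by limma's moderated F, with 0.577% of all genes called. At an unadjusted p under 0.05, 17 of 48 factors passed the 12 h test, against 16.7% of all genes. With limma array weights the test of times called 18 factors and the 12 h test 4, and without the 4 farthest arrays the test of times called 14. The 3 arrays of the highest time lay all above those of the lowest time in 35 of 48 factors and in 9 of the 9 called ones, where 63.1% of all genes showed this.

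The group means showed where in the cycle the factors stood high. The highest mean lay at CT12 in 14 factors and at CT15 in 15, where 11.0% and 12.8% of all genes had theirs. The lowest lay at CT21 in 14 factors and at CT09 in 10, against 14.0% and 13% of all genes. The median of the 48 group means was 0.04 at CT12 and 0.06 at CT15, and -0.07 at CT21. With each array centred on its own median, the same 14 and 15 counts were found at CT12 and CT15, and 15 and 11 at CT21 and CT09. Most of these factors were not called, and this count of extremes, chosen after the values were seen, carries no test. It was not repeated without CT15 replicates 1 and 2, the arrays farthest from the mean of their own time.

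**Figure D2:**
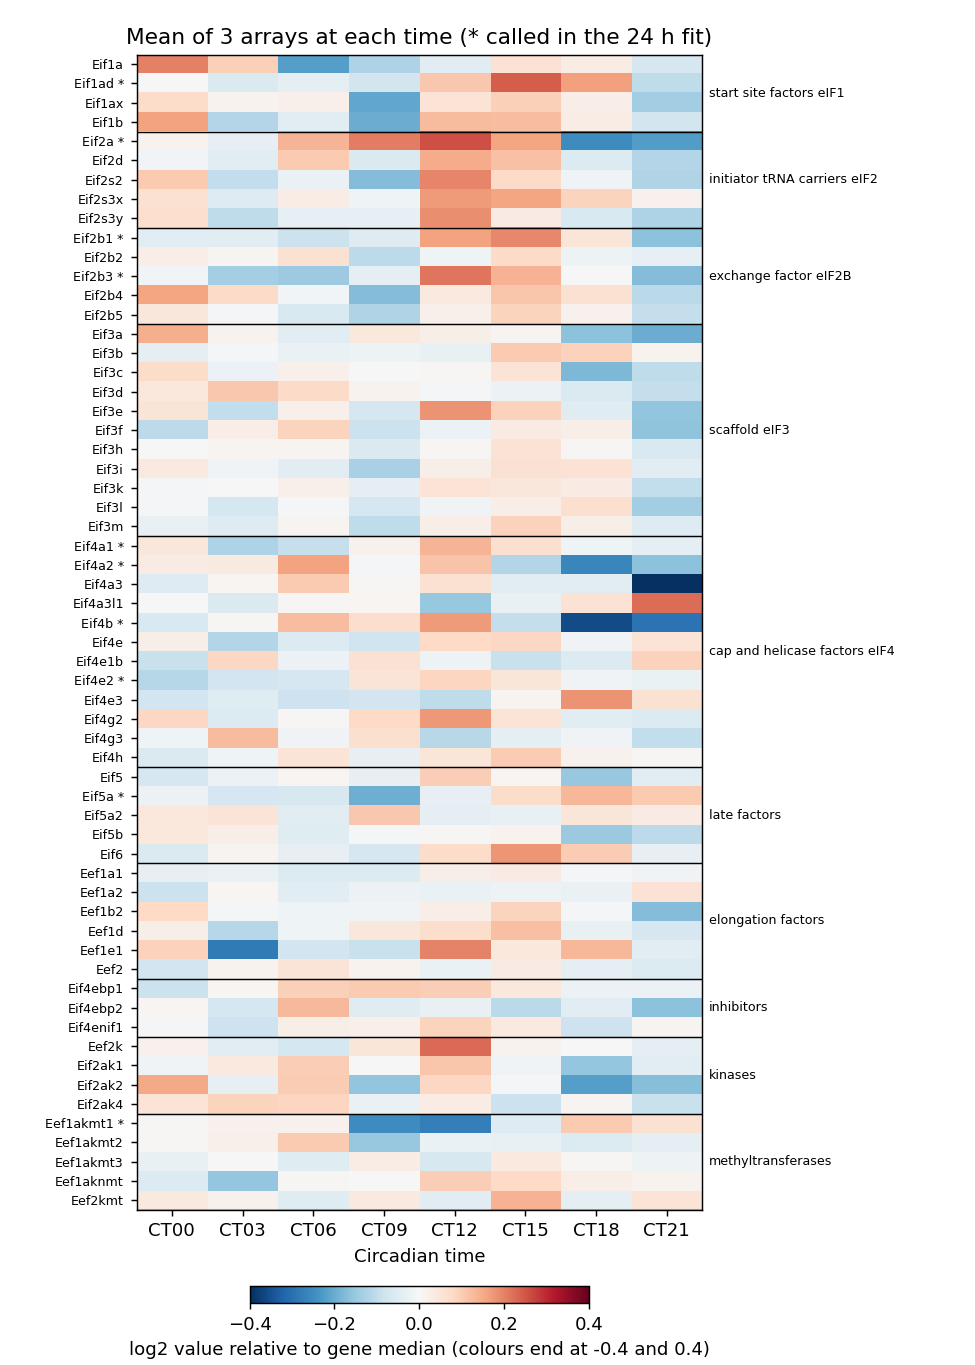
Mean of the 3 arrays at each of the 8 circadian times (columns) for each of the 60 genes (rows, grouped by role), as log2 value relative to the gene's median, red above and blue below, with an asterisk on called genes. Many rows are red at CT12 and CT15 and blue at CT21, and Eif4b is bluest at CT18.

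Beside the counts of called genes in each role below, 13.8% of all genes were called at 24 h. Among the cap and helicase factors, 4 of 12 were called, with only eIF2B higher by share (2 of 5), both from few genes. Their fitted peaks split by time of day, with Eif4b and Eif4a2 in the day and Eif4e2 and Eif4a1 around the start of the night. By group means, Eif4b, Eif4e2 and Eif4a1 were all highest at CT12, and Eif4a2 at CT06 (0.16), with 0.11 at CT12. The lowest means lay at CT18 in Eif4b and Eif4a2, at CT00 in Eif4e2 and at CT03 in Eif4a1. The median amplitude of the 12 was 0.0840.

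Eif4b encodes the cofactor that raises the activity of the eIF4A helicase, and it had the widest swing of all the factors. Its values over the subjective day were -0.14, -0.05 and 0.01 at CT00, -0.07, 0.08 and 0.01 at CT03, 0.12, 0.08 and 0.17 at CT06, and -0.01, 0.05 and 0.17 at CT09. They were 0.15, 0.09 and 0.26 at CT12, 0.02, -0.29 and -0.01 at CT15, -0.41, -0.37 and -0.29 at CT18, and -0.23, -0.20 and -0.46 at CT21. All 6 arrays of CT18 and CT21 lay below every array of CT00 to CT12, and CT15 replicate 2 was low beside its group. The wave had an amplitude of 0.227 ± 0.0332 (SE), a fold of 1.37 and a peak at 7.82 h ± 0.559 (adjusted p in limma 8.26e-05). The mean fell from 0.17 ± 0.09 (SD, n = 3) at CT12 to -0.36 ± 0.06 (SD, n = 3) at CT18.

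Eif4a2 encodes a form of the eIF4A helicase. Its values were 0.00, 0.08 and 0.02 at CT00, 0.01, 0.16 and -0.06 at CT03, 0.16, 0.15 and 0.18 at CT06, and 0.02, 0.02 and -0.05 at CT09. In the night they were 0.30, -0.00 and 0.04 at CT12, -0.16, -0.09 and -0.09 at CT15, -0.26, -0.29 and -0.24 at CT18, and -0.13, -0.16 and -0.20 at CT21. All 9 arrays from CT15 to CT21 lay below all 15 of CT00 to CT12. The fitted amplitude was 0.162 ± 0.0287 (SE), the fold 1.25 and the peak 6.50 h ± 0.675 (adjusted p in limma 0.000800).

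Eif4a1 encodes the closely related helicase that is usually the more abundant form in tissues. Its values were 0.10, 0.03 and 0.00 at CT00, -0.15, -0.05 and -0.17 at CT03, -0.04, -0.12 and -0.11 at CT06, and -0.02, 0.04 and 0.03 at CT09. In the night they were 0.16, 0.16 and 0.09 at CT12, 0.06, 0.13 and 0.00 at CT15, -0.01, -0.03 and -0.02 at CT18, and -0.05, -0.07 and 0.01 at CT21. The 6 arrays of CT03 and CT06 were all below 0, and CT12 had the highest mean, with its lowest array below CT15 replicate 2 and CT00 replicate 1. The amplitude was small, 0.0784 ± 0.0220 (SE), with a fold of 1.11 and a peak at 14.2 h ± 1.07 (adjusted p in limma 0.0451). The 3 probe sets of Eif4a1, fitted apart, peaked at 14.1, 14.5 and 13.9 h with adjusted p-values in limma of 0.0640, 0.0497 and 0.0647. The call was lost without any of 16 arrays taken singly (CT03, CT06, CT12 and CT21 replicates 1, 2 and 3, CT09 replicates 2 and 3, CT15 replicates 1 and 2, adjusted p in limma 0.0507 to 0.110). It was also lost without CT03 (0.337), CT06 (0.124), CT09 (0.0662), CT12 (0.296), CT15 (0.109) or CT21 (0.0766), and with the replicate number as a block (0.0515).

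The difference between both helicase genes was tested on the same values that gave both calls, so it is not separate support for them. The pairs tested were chosen with earlier results of these data known. Eif4a2 minus Eif4a1, taken array by array, followed a 24 h wave with an amplitude of 0.208 ± 0.0255 (SE) and was greatest at 5.17 h. Its group means ran from 0.25 at CT06 to -0.24 at CT18. The permutation test over the time labels of the 24 arrays gave p = 1e-05, two-sided and the smallest that 100000 resamples can give. Adjusted over 11 pairs of related genes the p was 0.00011 by this permutation test. The amplitude stayed between 0.179 and 0.235 in 37 alternatives, which included each Eif4a1 probe set alone and each array and each time left out. None of the other 10 pairs passed. The nearest were Eif4a3 minus Eif4a1 (0.163 ± 0.0486, SE, adjusted permutation p = 0.0560) and Eif5a minus Eif5a2 (0.131 ± 0.0475, SE, adjusted permutation p = 0.138).

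**Figure D3:**
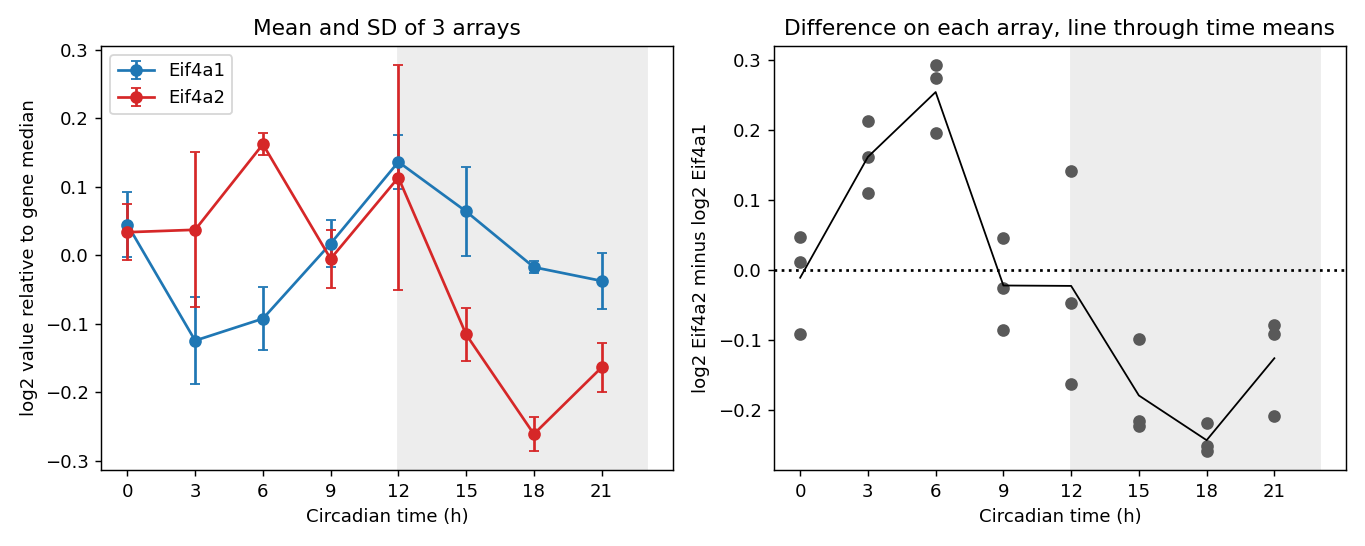
Left, mean and SD of 3 arrays of the log2 value of Eif4a2 and Eif4a1 relative to each gene's median, against circadian time in hours, and right, Eif4a2 minus Eif4a1 on each of the 24 arrays with a line through the time means, shading from CT12. Eif4a2 is low from CT15 to CT21, Eif4a1 is low at CT03 and CT06, and the difference runs from 0.25 at CT06 to -0.24 at CT18.

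Eif4e2 encodes a cap-binding protein that acts in repression of translation. It was -0.12, -0.07 and -0.15 at CT00 and 0.19, 0.04 and 0.03 at CT12, without overlap. Its wave had an amplitude of 0.0895 ± 0.0201 (SE), a fold of 1.13 and a peak at 12.9 h ± 0.856 (adjusted p in limma 0.00836). The call was lost without CT00 (0.060) or CT12 (0.0565). Eif4a3, a helicase of the complex deposited at exon junctions, was called only by the test of times (adjusted p in limma 0.0428). It stood at -0.34, -0.37 and -0.50 at CT21, with all other group means between -0.05 and 0.11. Its 24 h wave had a fold of 1.23 (adjusted p in limma 0.0561), which passed in 10 of the leave-one-out fits (adjusted p 0.0283 to 0.0494). Probe sets that the platform assigns to both Eif4a3 and Eif4a3l1 had CT21 means of only -0.06 and -0.10. Neither was called by the test of times (adjusted p in limma 0.375 and 0.388), so the low CT21 values rest on 1 probe set. The cap-binding protein gene Eif4e had 3 probe sets with fitted peaks at 13.6, 18.5 and 18 h, none of them called. For the oocyte-type gene Eif4e1b the 2 probe sets disagreed, with fitted peaks at 22.5 and 5.40 h. The 8 eIF4 genes not called at 24 h had adjusted p-values in limma from 0.0561 to 0.682.

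**Figure D4:**
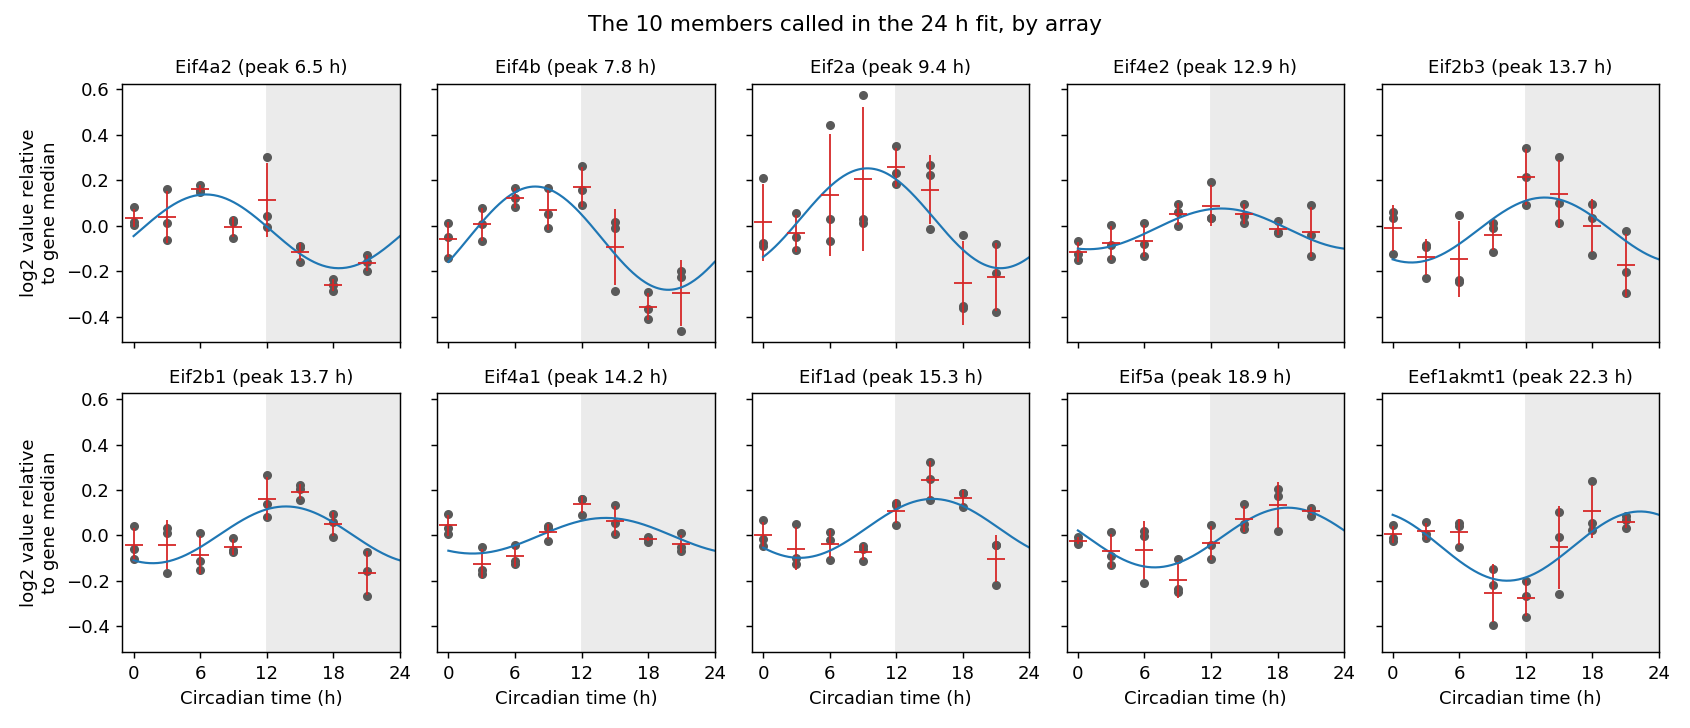
Log2 value relative to the gene's median of every array (points), the mean and SD of 3 arrays (red) and the fitted 24 h wave (line) against circadian time in hours, for the 10 called genes, shading from CT12. Eif4b and Eif4a2 are low late in the night, Eif5a is low at CT09, and Eef1akmt1 is low at CT09 and CT12.

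The promoter windows of these genes were read for binding elements of the clock and stress pathways. RefSeq windows of the build GRCm38.p6, each from 250 bases before to 50 after a gene's start, were held for 47 of the 60 genes. The genes without one were Eif1a, Eif2b3, Eif3e, Eif3h, Eif3i, Eif4e1b, Eif4e3, Eif4ebp1, Eif4g2, Eif6, Eef1akmt1, Eef1akmt3 and Eef1d. The letters CACGTG, the E-box read by CLOCK with BMAL1 and also by MYC, lay in the windows of 12 of 47 genes (25.5%). They lay in 9.57% of 15010 protein-coding tested genes and in 14.1% of the called genes among these. Of the 8 called genes with a window, Eif4a1 and Eif5a held it, while Eif4b, Eif4a2 and the other called genes did not. Not called at 24 h but holding it were Eef2, Eif4e, Eif4h, Eif3f, Eif3k, Eif3a, Eif1b, Eif5a2, Eef2k and Eef1aknmt. Eif4e holds it at 64 and at 228 bases before its start, and the nearer site is shown. Stretches around the element are shown on the gene's strand and with the element in capitals. The first are those of both called genes. Those of Eef2 and Eif4e follow, 2 of the genes not called (adjusted p in limma 0.422 and 0.274).
Eif4a1, chr11:69672577-69672642, minus strand, 189 bases before the start: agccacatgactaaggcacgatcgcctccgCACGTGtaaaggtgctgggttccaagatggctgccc
Eif5a, chr11:69920773-69920838, minus strand, 178 bases before a start: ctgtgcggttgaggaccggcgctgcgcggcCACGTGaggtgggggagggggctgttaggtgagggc
Eif5a, chr11:69921425-69921490, minus strand, 74 bases before another start: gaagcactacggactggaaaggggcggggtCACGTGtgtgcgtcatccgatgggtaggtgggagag
Eef2, chr10:81176558-81176623, plus strand, 43 bases before the start: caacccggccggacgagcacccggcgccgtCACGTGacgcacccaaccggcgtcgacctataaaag
Eif4e, chr3:138527174-138527239, plus strand, 64 bases before the start: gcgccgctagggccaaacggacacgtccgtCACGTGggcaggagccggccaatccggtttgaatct
The same hexamer thus lay in genes with and without a called wave. A gene was counted if any of its windows held the letters, and some genes, such as Eif5a, have several starts. Counted by window, 7.15% of all windows held them. Neither base composition nor the number of windows per gene was matched in this count. On either strand, the D-box letters TTANGTAA lay in 1 window of the 47 genes (Eif2s2) against 2.37% of all genes, and AGGTCA preceded by AANT, read by REV-ERB and ROR, in 0 against 0.180%. The letters TGATGNAA, read by ATF4, lay in 2 (Eef2k and Eif2s3x, 4.26%) against 3.64%. Of the 47 genes, 2 (Eif2s3x and Eif3f) began with a C followed by at least 4 pyrimidines at the annotated start, as 2.73% of all genes did.

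Among the eIF1 genes, 1 of 4 was called, Eif1ad, which encodes a protein with a domain like that of eIF1A. It was 0.15, 0.32 and 0.25 at CT15 and 0.19, 0.18 and 0.12 at CT18, and then -0.04, -0.04 and -0.22 at CT21. The arrays of CT15 and CT18 lay above all those of CT21 and of CT00 to CT09. Its amplitude was 0.130 ± 0.0283 (SE), its fold 1.2 and its peak 15.3 h ± 0.833 (adjusted p in limma 0.00655). The call was lost without CT15 (0.120) and without the 4 farthest arrays (0.0751). Eif1a, Eif1b and Eif1ax, which encode the start-site factors proper, had 24 h folds of 1.15, 1.12 and 1.04 (adjusted p in limma 0.347, 0.455 and 0.92). All 4 eIF1 genes passed the test of times and the 12 h test at an unadjusted p under 0.05 in limma. Of all 19935 genes, 4994 and 3339 did. After adjustment the test of times called 1 of the 4, Eif1ad, and the 12 h test 0.

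Among the genes for carriers of the initiator tRNA, 1 of 5 was called, Eif2a. Its product brings initiator tRNA to some mRNAs apart from the main eIF2 complex. Its values were 0.18, 0.35 and 0.23 at CT12 and -0.36, -0.35 and -0.04 at CT18, without overlap. The day arrays were spread widely, with 0.01, 0.03 and 0.57 at CT09 and 0.03, -0.07 and 0.44 at CT06. The amplitude was 0.220 ± 0.0523 (SE), the fold 1.36 and the peak 9.39 h ± 0.910 (adjusted p in limma 0.0139). The call was lost without CT12 (0.0791), without CT21 (0.0954) and without the 4 farthest arrays (0.0540). Of the eIF2 subunits proper, Eif2s2, Eif2s3x and Eif2s3y had folds of 1.09, 1.12 and 1.10 and were not called (adjusted p in limma 0.820, 0.513 and 0.574). The 2 probe sets of Eif2s2 peaked at 17.6 and 12.3 h and neither was called.

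The exchange factor eIF2B, which returns eIF2 to its GTP-bound form, had 2 of its 5 subunit genes called, both with a peak early in the night. Eif2b1, the alpha subunit, was 0.27, 0.14 and 0.08 at CT12, 0.20, 0.22 and 0.15 at CT15 and -0.07, -0.16 and -0.26 at CT21. The arrays of CT12 and CT15 lay above all those of CT21. Its amplitude was 0.125 ± 0.0294 (SE), its fold 1.19 and its peak 13.7 h ± 0.900 (adjusted p in limma 0.0127). Eif2b3, the gamma subunit, was 0.21, 0.34 and 0.09 at CT12 and -0.02, -0.20 and -0.30 at CT21, again without overlap. Its amplitude was 0.143 ± 0.0379 (SE), its fold 1.22 and its peak 13.7 h ± 1.01 (adjusted p in limma 0.0311). Eif2b2, Eif2b4 and Eif2b5 had folds of 1.02, 1.07 and 1.06 and were not called (adjusted p in limma 0.769 to 0.988). The difference Eif2b1 minus Eif2b2 did not pass the permutation test over 11 pairs (0.135 ± 0.0584, SE, adjusted p = 0.250). The Eif2b1 call was lost without CT12 (0.104), CT15 (0.150) or the 4 farthest arrays (0.112). That of Eif2b3 was lost without CT03 replicate 3 (0.0634), CT12 replicates 1 (0.0663) or 2 (0.0737), CT15 replicate 2 (0.0734), CT03 (0.0996), CT06 (0.0554), CT12 (0.247) or CT15 (0.117).

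The scaffold eIF3 had none of its 11 measured subunit genes called by limma at 24 h, and 1 at an unadjusted p under 0.05. That was Eif3b, a core subunit, with a fold of 1.08 and a fitted peak at 16.9 h (adjusted p in limma 0.174). Folds of the 11 ran from 1.02 to 1.12 with a median amplitude of 0.0542, and fitted peaks were spread from 5.20 to 18.4 h. The 2 probe sets of Eif3m peaked at 15.7 and 15.3 h and neither was called. In simulated data with the measured spread of each gene, the 24 h test found 2% of genes with an amplitude of 0.05, 36% at 0.1 and 84% at 0.2. Only 50 genes at each amplitude carried a wave there, so the adjusted threshold was stricter than here, where 13.8% of all genes were called. The simulated noise was also independent between genes and arrays, and each simulated wave was a pure cosine. Whether these shares are too low or too high for the real test is not known. How many waves as shallow as those fitted for eIF3 were missed is not known.

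Of the 5 late factors, 1 was called. Eif5a encodes a hypusine-bearing protein that helps ribosomes through difficult stretches and at termination. Its values were -0.01, -0.04 and -0.02 at CT00, -0.09, -0.13 and 0.01 at CT03, -0.21, -0.00 and 0.02 at CT06, and -0.24, -0.25 and -0.10 at CT09. In the night they were -0.10, 0.04 and -0.04 at CT12, 0.05, 0.14 and 0.03 at CT15, 0.02, 0.17 and 0.21 at CT18, and 0.12, 0.11 and 0.09 at CT21. All 9 arrays from CT15 to CT21 were above 0 and all those of CT09 below. The amplitude was 0.131 ± 0.0237 (SE), the fold 1.2 and the peak 18.9 h ± 0.689 (adjusted p in limma 0.00101). Both of its probe sets were called, with folds of 1.14 and 1.26 and peaks at 18.7 and 19.0 h (adjusted p in limma 0.0186 and 0.00158). Eif5a holds CACGTG in the windows shown above, as does Eif5a2, which had a fold of 1.03 (adjusted p in limma 0.913). Eif6, which keeps large subunits from joining too early, had a fold of 1.13 and a fitted peak at 15.4 h (adjusted p in limma 0.132). Eif5 and Eif5b had folds of 1.09 and 1.06 (adjusted p in limma 0.444 and 0.653).

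None of the 6 elongation factor genes was called by limma at 24 h, and 0 of the 6 passed at an unadjusted p under 0.05. Their median amplitude, 0.0388, was the lowest of all roles of factors. The highest fold, 1.22 with a fitted peak at 15.8 h, was that of Eef1e1, which encodes a protein of the complex of tRNA synthetases (adjusted p in limma 0.356). Eef2, the translocase, had a fold of 1.06 (adjusted p in limma 0.422), and its arrays ran from -0.11 to 0.18. Eef1a1, the carrier of aminoacyl-tRNA, had a fold of 1.05 (adjusted p in limma 0.827).

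In 4 of the 6 elongation factor genes the values differed by the replicate number in the labels. A test of the 3 numbers beside the 24 h wave, added after the values were seen, called 7 of the 60 genes, where 1.95% of all genes were called. Within the upper brightness class it called 5 of 27 of these genes, where 18.1% of all genes of that class were called, so there the count was close to the background. Of the 7, 4 were elongation factor genes (Eef1a1, Eef1a2, Eef1b2 and Eef1d), and the others were Eif3d, Eif5 and Eif4ebp1. Eef1e1 and Eef2 did not pass (adjusted p in limma 0.0727 and 0.313). Eef1a1 was -0.18 to -0.10 on the 8 arrays with number 1, -0.13 to 0.09 with number 2 and 0.04 to 0.16 with number 3 (adjusted p in limma 0.000507). Number 1 and number 3 did not overlap, at any time of the cycle. Eef1a2, the form of muscle and nerve, had means of -0.16, 0.04 and 0.07 for the 3 numbers (adjusted p in limma 0.00259). Its sequence is close to that of Eef1a1, and whether their probe sets share signal was not tested. Eef1d, a subunit of the exchange factor, ran the other way, with means of 0.15, -0.05 and -0.09 (adjusted p in limma 0.0221). Eef1b2, another subunit of it, had 0.11, -0.01 and -0.10 (adjusted p in limma 0.0427). What the numbers stand for is not given in the labels. The call of Eef1a1 held in 37 alternatives (adjusted p in limma 0.000124 to 0.00637). The share of genes called ran from 0.607% to 5.22% in fits of all genes, and was 18.1% with the upper brightness class only. The count of 7 ranged from 2 to 12. It was 2 without CT03 or CT06, 3 without CT12, CT18, CT00 replicate 1 or the 4 farthest arrays, and 4 without CT03 replicates 1 or 3, CT06 replicates 1 or 3, CT12 replicate 3 or CT18 replicate 1.

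Of the 7 inhibitors and kinases, 0 were called by limma at 24 h, and 1 passed at an unadjusted p under 0.05. The inhibitors Eif4ebp1 and Eif4ebp2 encode the 4E-binding proteins that block eIF4E until they are phosphorylated. Eif4ebp1 had group means from -0.08 at CT00 to 0.10 at CT09, a fold of 1.13 and a fitted peak at 9.87 h (adjusted p in limma 0.252). Eif4ebp2 had group means from -0.16 at CT21 to 0.13 at CT06, a fold of 1.10 and a fitted peak at 6.22 h (adjusted p in limma 0.568). Their difference did not pass the permutation test over 11 pairs (amplitude 0.0741 ± 0.0510, SE, p = 0.367 before adjustment). Eif4enif1, a protein that carries eIF4E to sites of mRNA storage and decay, had a fold of 1.07 (adjusted p in limma 0.284). Its 2 probe sets disagreed, with a fold of 1.14 and a peak at 11.5 h in the called one (adjusted p in limma 0.0281) and a fold of 1.00 in the other (0.998).

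The kinase nearest to the threshold was Eif2ak1, which phosphorylates eIF2 when haem is scarce. It was -0.14, -0.23 and -0.10 at CT18 and 0.14, -0.03 and 0.22 at CT12, without overlap. Its fold was 1.13 and its fitted peak 7.31 h (adjusted p in limma 0.0959). It passed without CT09 replicates 1 (0.0442) or 2 (0.0419), CT21 replicate 1 (0.0379) or CT09 (0.0232). Eif2ak4, the kinase that senses uncharged tRNA, had a fold of 1.10 and a fitted peak at 4.48 h (adjusted p in limma 0.216). Eif2ak2, activated by double-stranded RNA, had a fold of 1.12 and a fitted peak at 5.50 h (adjusted p in limma 0.668). Eef2k, which slows elongation by phosphorylating eEF2, was 0.25, 0.12 and 0.32 at CT12 and had a fold of 1.12 with a fitted peak at 12.6 h (adjusted p in limma 0.213). Its 2 probe sets, with fitted peaks at 13.9 and 11.9 h, were both not called.

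Among the methyltransferases, 1 of 5 was called. Eef1akmt1 encodes an enzyme that methylates a lysine of eEF1A. It was -0.22, -0.39 and -0.15 at CT09 and -0.20, -0.27 and -0.36 at CT12, against 0.06, 0.02 and 0.24 at CT18. The arrays of CT09 and CT12 lay below all those of CT18, CT21 and CT00 to CT06. The amplitude was 0.152 ± 0.0331 (SE), the fold 1.24 and the peak 22.3 h ± 0.831 (adjusted p in limma 0.00640). The call was lost without CT09 (0.0547) or CT12 (0.0916). Eef1aknmt, another enzyme of eEF1A, had a fold of 1.14 and a fitted peak at 14.2 h (adjusted p in limma 0.0718). Eef1akmt2, Eef1akmt3 and Eef2kmt had folds of 1.02 to 1.07 and were not called.

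Genes around the factors were taken from a list of 46 pathway genes, of which 42 were tested. Of these, 15 (35.7%) were called at 24 h, beside 13.8% of all genes, 8 with a day peak and 7 with a night peak. The list's median amplitude was 0.0940. The list was written with earlier results of these data known, so this share is a description.

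The genes of the mTOR pathway that were called peaked at different times. Rptor, Mlst8, Akt1s1, Tsc1, Tsc2, Rheb, Rps6kb2, Rps6, Sesn1 and Sesn2, also of the pathway, were not called (adjusted p in limma 0.133 to 0.901). Mtor, the kinase itself, had a fold of 1.43 and a peak at 7.76 h (adjusted p in limma 1.31e-05), and the mTOR inhibitor gene Deptor 1.17 at 11.7 h (0.00796). Ddit4, a stress-induced inhibitor of the pathway, had a fold of 1.45 and a peak at 19.9 h (adjusted p in limma 3.42e-05). It was -0.33, -0.21 and -0.38 at CT09 and 0.15, 0.58 and 0.07 at CT18, without overlap. Sesn3, a sestrin that restrains the pathway, had a fold of 1.27 and a peak at 2.90 h (adjusted p in limma 0.00141), and it alone of the list had a called 12 h wave (0.0285).

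The widest swings of the list belonged to genes that act on the eIF4 factors. Mknk2, a kinase of eIF4E, had a fold of 1.77 and a peak at 12.8 h (adjusted p in limma 9.10e-06). It was -0.61, -0.43 and -0.54 at CT00 and 0.66, 0.10 and 0.60 at CT15. Mknk1, the related kinase, had a fold of 1.2 and a peak at 13 h (0.00846). Pdcd4, which binds and blocks eIF4A, had a fold of 1.58 and a peak at 2.37 h (adjusted p in limma 2.49e-05). It was 0.22, 0.32 and 0.47 at CT06 and -0.65, -0.24 and -0.47 at CT15. In both genes the arrays of the named times did not overlap.

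The other called genes bind mRNA, modify factors or end translation. Larp1, which binds the leaders of ribosomal protein mRNAs, had a fold of 1.35 and a peak at 0.111 h (adjusted p in limma 6.55e-05). The poly(A)-binding protein gene Pabpc1 had 1.15 at 11.7 h (0.0232) and its partner Paip1 1.2 at 12.0 h (0.0418). Dhps, which begins the hypusine modification of eIF5A, had 1.15 at 15.3 h (0.0166), and Dph2, of the diphthamide pathway of eEF2, 1.17 at 19.0 h (0.0367). The release factor gene Etf1 had 1.21 at 10.1 h (0.0122), and the ribosome recycling gene Abce1 1.24 at 17.7 h (0.000514). Dhx29, a helicase for structured leaders, had 1.2 at 19.6 h (0.0188). Mtor, Mknk2, Pdcd4, Ddit4, Larp1, Abce1 and Sesn3 were called in each of 43 alternatives for which they had a value. Calls were lost for Deptor without CT12 (0.115), Etf1 without CT12 (0.122) or CT21 (0.150) and Mknk1 without CT15 (0.0881). That of Dhps was lost without CT00 (0.0529), CT03 (0.0527) or CT15 (0.286), and that of Dhx29 without CT09 (0.0635), CT18 (0.10) or CT21 (0.0531). Pabpc1 lost its call without CT00 replicates 1 or 2 (0.0586 to 0.0647), CT00 (0.0872), CT03 (0.0610), CT12 (0.110) or the 4 farthest arrays (0.0687). Dph2 lost it without any of 10 arrays (CT03 replicate 3, CT06 replicates 1, 2 and 3, CT09 replicates 1 and 3, CT18 replicates 1 and 2, CT21 replicates 2 and 3, 0.0506 to 0.0934) without 6 of the 8 times (0.0529 to 0.172), without moderation (0.0520) and without the 4 farthest arrays (0.0704). Paip1 lost it without any of 14 arrays (CT00 replicate 1, CT03 replicates 1 and 3, CT06 replicate 1, CT09 replicate 3, CT12 replicates 1, 2 and 3, CT15 replicates 2 and 3, CT18 replicate 2, CT21 replicates 1, 2 and 3, 0.0519 to 0.0991) without 5 of the times (0.0588 to 0.419), with arrays centred (0.0530), without moderation (0.0652) and without the 4 farthest arrays (0.0828).

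**Figure D5:**
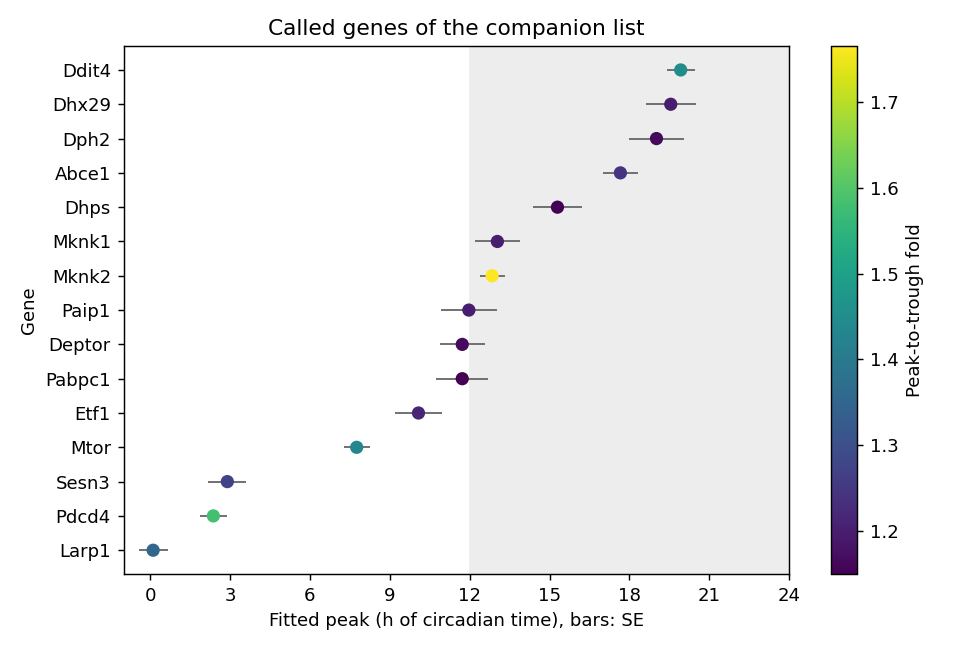
Fitted 24 h peak in hours of circadian time with its SE (bars) for the 15 called pathway genes (rows), with colour for the peak-to-trough fold and shading from CT12. Mknk2 has the highest fold, 1.77 at 12.8 h, and Larp1 the earliest peak, at 0.111 h.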

How the data were processed

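Per the labels' protocols, total RNA of individual livers was biotin labelled and hybridized to Affymetrix Mouse Gene 1.0 ST arrays. The authors deposited log values, taken here as log2 because their range and rounding steps fit it, minus each probe set's median over the 24 arrays (every row median was within 5e-07 of 0). How the authors corrected background, summarized and normalized the arrays, and in which log base, was not given in the sources used, so folds hold for base 2. The centring leaves no level of a gene. Brightness is known only as a class, 4 to 8 or 8 to 16, read from rounding steps. A constant added ahead of the log step would understate changes of dim genes. Depth has no meaning for arrays, and their number limits precision.

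Of 28815 probe sets, 21780 had 1 symbol, 1605 several and 5430 were not in the platform annotation. Those with 1 symbol were averaged per gene, giving 19935 genes, and 8 of the 60 genes had several. Where a gene has near-identical copies, probes may share signal. Tests used limma 3.58.1 in R 4.3.3 over all genes with Benjamini-Hochberg adjustment at 0.05, for the 24 h wave, the 8 times and the 12 h wave. Standard errors came from the delta method. The 24 h test was checked on simulated data (8 false calls among the unchanged genes of 19935). Differences within gene pairs were tested by permuting the time labels.

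The members, the pathway list, the 11 pairs and the alternatives were chosen with earlier results of these data known. By rule, the genes named were all called members, the inhibitors and kinases, the smallest p of each role, genes with several probe sets and the called pathway genes. Other names were added after values were seen.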

Additional observations from a re-analysis of the deposited data

How the results depend on the processing

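The counts of called genes were recomputed under 43 alternatives, and 10 of 25 called named genes kept their call in each. The factors with a 24 h wave (9) came to 5 without the 4 farthest arrays, 5 with the upper brightness class only and 4 at a fold of at least 1.2, and 4 to 12 when single arrays or times were left out. Of their night peaks (6), the counts were 3 without the farthest arrays, 2 in the upper class and 2 to 7 with arrays or times left out. With the peak taken at the highest group mean, Eif4b and Eif2a, both at CT12, joined these 6. The factors differing among the times (8) came to 18 with array weights, 14 without the farthest arrays and 5 to 13 with arrays or times left out: 5 without CT09 replicate 1 or CT12, and 13 without CT09 replicate 3. Factors with a 12 h wave (0) came to 4 with array weights, 1 with the small nucleolar RNA covariate, chosen after seeing the data, and 0 to 1 with arrays or times left out (1 without CT03 replicate 3). The inhibitors and kinases (0) came to 1 with probe sets apart (Eif4enif1), 1 with that covariate (Eif2ak1) and 0 to 1 with arrays or times left out (Eif2ak1). The pathway genes (15) came to 7 in the upper class. With a replicate block, 9 factors were called, 8 of them shared, 12 in the test of times and 1 in the 12 h test. The labels give equal numbers no shared source, so they were not taken as pairs. Deviations from the mean of each time correlated at 0.0937 on average for equal numbers (-0.399 to 0.498) and at -0.0465 for different ones. As the deviations of each time sum to 0, the second value follows largely from the first. Of the 24 arrays, 15 were closest to their own number among the 3, a hint of shared structure from the data, not the design. Eif4a1 also lost its call with arrays centred (0.0571), array weights (0.130), that covariate (0.0555) and without the farthest arrays (0.146), and Eif2b3 without moderation (0.0517), all adjusted p in limma. The cause of these changes was not tested. The smallest called amplitude was 0.0784 among the factors and 0.0555 among all genes. What share of waves with an amplitude under 0.1 went undetected is not known.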

Other observations

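A probe set that the platform assigns to both Ankhd1 and Eif4ebp3, so to no single gene, had the widest wave of the 11 shared probe sets with a symbol of these families and was the only called one. It was singled out after its values were seen. Its values were -0.14, -0.21 and -0.26 at CT00, -0.25, -0.26 and -0.33 at CT03, -0.34, -0.32 and -0.44 at CT06, and -0.08, -0.36 and -0.12 at CT09. They were 0.42, 0.23 and 0.24 at CT12, 0.28, 0.17 and 0.41 at CT15, 0.29, 0.44 and 0.41 at CT18, and 0.08, 0.45 and 0.43 at CT21. All 12 arrays of CT12 to CT21 lay above 0 and all 12 of CT00 to CT09 below. The amplitude was 0.40 ± 0.0377 (SE), the fold 1.74 and the peak 16.7 h (adjusted p in limma 1.64e-07, in a fit of 23385 probe sets of which 13.2% were called). Eif4ebp3 encodes a further 4E-binding protein, and Ankhd1 an ankyrin repeat protein at the neighbouring position, so the wave cannot be assigned to either. No called 24 h wave was found by limma in Eif4ebp1 or Eif4ebp2, described above.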
